A study of Schizosaccharomyces pombe with 12 samples.

Results

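The 6 genes described here encode the RNA of fission yeast telomerase (TER1) and 5 proteins that act with it: the catalytic subunit Trt1, the recruitment subunit Est1, and Pof8, Thc1 and Bmc1. They were chosen by their identifiers from a table of 7004 genes, by a rule that used no measured value. The choice was made with earlier results of these data known. RNA was sequenced from 12 log phase cultures of *Schizosaccharomyces pombe* grown in YES broth at 32 °C, with 3 cultures for each of 4 strains, all haploid. In *thc1*Δ (h-) the coding sequence of *thc1* was exchanged for *his3*, and its control is an h- wild type. In *bmc1*Δ (h+), which was recovered by sporulating a diploid, natMX6 takes the place of the *bmc1* coding sequence, and its control is another, h+ wild type. All 4 strains share the marker alleles leu1-32, ura4-D18 and his3-D1. All also carry a mutant allele of *ade6*, which may differ between the h- and the h+ strains. Each deletion is represented by 1 strain, so that a difference between a deletion and its wild type includes anything else in which these strains differ.

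Telomerase lengthens chromosome ends by reverse transcription of a template within its own RNA. In fission yeast, TER1 is made as a longer precursor. The Sm ring binds it, the spliceosome cuts it at the end of the first exon to form the mature 3′ end, Tgs1 hypermethylates the cap, and the LSm ring then replaces the Sm ring. Pof8, a La-related protein, promotes the loading of the LSm ring, and Trt1 joins the RNA thus protected. Bmc1 belongs to the family of methyl phosphate capping enzymes, and Thc1 resembles the cap-binding domain of the nuclease PARN. Which transcripts of this enzyme differ in amount when Thc1 or Bmc1 is missing was the question of the comparisons.

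TER1 (SPNCRNA.214) is annotated on the minus strand at chrI:3084610-3086022 in RefSeq's ASM294v3, with exons of 1207 and 150 bases around an intron of 56 bases. The reads were aligned to ASM294v2, and the count table holds no coordinates, so that all positions given here are those of ASM294v3. The stretch at chrI:3085769-3085815 (minus strand) is shown because it carries the letters TGTAACC, the complement of the core of the telomeric repeat, which begin at base 228 of TER1 and are its only match on either strand. The stretch at chrI:3084760-3084845 (minus strand) is shown because it joins the end of exon 1 to the whole intron. Its capitals mark the Sm site ATTTTTTGG, found 1 time from base 1200, of which 8 letters lie in exon 1 and 1 in the intron.
TER1 template stretch: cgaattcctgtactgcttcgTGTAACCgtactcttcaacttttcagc
TER1 end of exon 1 and intron: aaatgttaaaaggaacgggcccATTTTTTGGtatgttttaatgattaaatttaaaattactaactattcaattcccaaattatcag
Of 8895 genome windows of the same length of 1413 bases, 11.2% hold TGTAACC and 7.11% hold ATTTTTTGG on either strand. The table gives 1 count for the whole TER1 gene, so that the precursor, the spliced form and the mature form cannot be told apart in it.

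The protein genes are spread over all chromosomes. The *trt1* gene (SPBC29A3.14c, chrII:2062472-2066110, minus strand) has 16 exons, and only its 2967 coding bases are annotated. The *est1* gene (SPBC2D10.13, chrII:2988586-2990276, plus strand) has 2 exons. The *pof8* gene (SPAC17G6.17, chrI:3623723-3625371, plus strand) has 1 exon of 1649 bases. The *thc1* gene (SPCC18B5.09c, chrIII:737089-737870, minus strand) is the shortest, with 782 exonic bases of which 351 are coding. The *bmc1* gene (SPBC2A9.10, chrII:2964103-2965576, plus strand) has 2 exons with 1432 bases, 807 of them coding. Each of the 6 genes overlaps annotated genes on the opposite strand, and 2 of these overlapping genes are themselves in the table, *myo51* over 99 bases of *est1* and *iss9* over 472 bases of *bmc1*. The sources used here do not give whether the counting used the strand of a read, and reads from such partners cannot be told apart from those of the 6 genes.

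The libraries held 33.57 M to 40.33 M counts on genes, and all 6 genes passed the filter on low counts in every comparison. Replicates of a strain differed by more than sampling noise in all 12 pairs (chi-square divided by its degrees of freedom, 2.95 to 68.9). In the *thc1*Δ strain and in both h+ strains, replicate 1 stood apart from replicates 2 and 3. The values below are CPM, counts per 1000000 counts in the library, on library sizes scaled by the trimmed mean of M values (TMM), and a gene is said to have risen or fallen only where edgeR's quasi-likelihood test gave an adjusted *p* below 0.05. The scaling left the median log2 fold change of all genes at 0.00287 in *thc1*Δ and at -0.00125 in *bmc1*Δ. The 3 replicates are separate cultures of 1 strain, so that the *p* values measure the spread between cultures only.

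The deleted genes were read first, as a check of the labels. The *thc1* gene had 21.0, 20.8 and 19.7 CPM in *thc1*Δ libraries, against 51.9, 51.3 and 48.2 CPM in libraries of the *thc1* wild type. The *bmc1* gene had 15.4, 16.5 and 15.4 CPM in *bmc1*Δ libraries, against 25.2, 26.1 and 25.2 CPM in libraries of the *bmc1* wild type. Each gene was lowest in the 3 libraries labelled as its deletion, with no overlap with any of the other 9 libraries, so that no library went against its label.

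**Figure D1:**
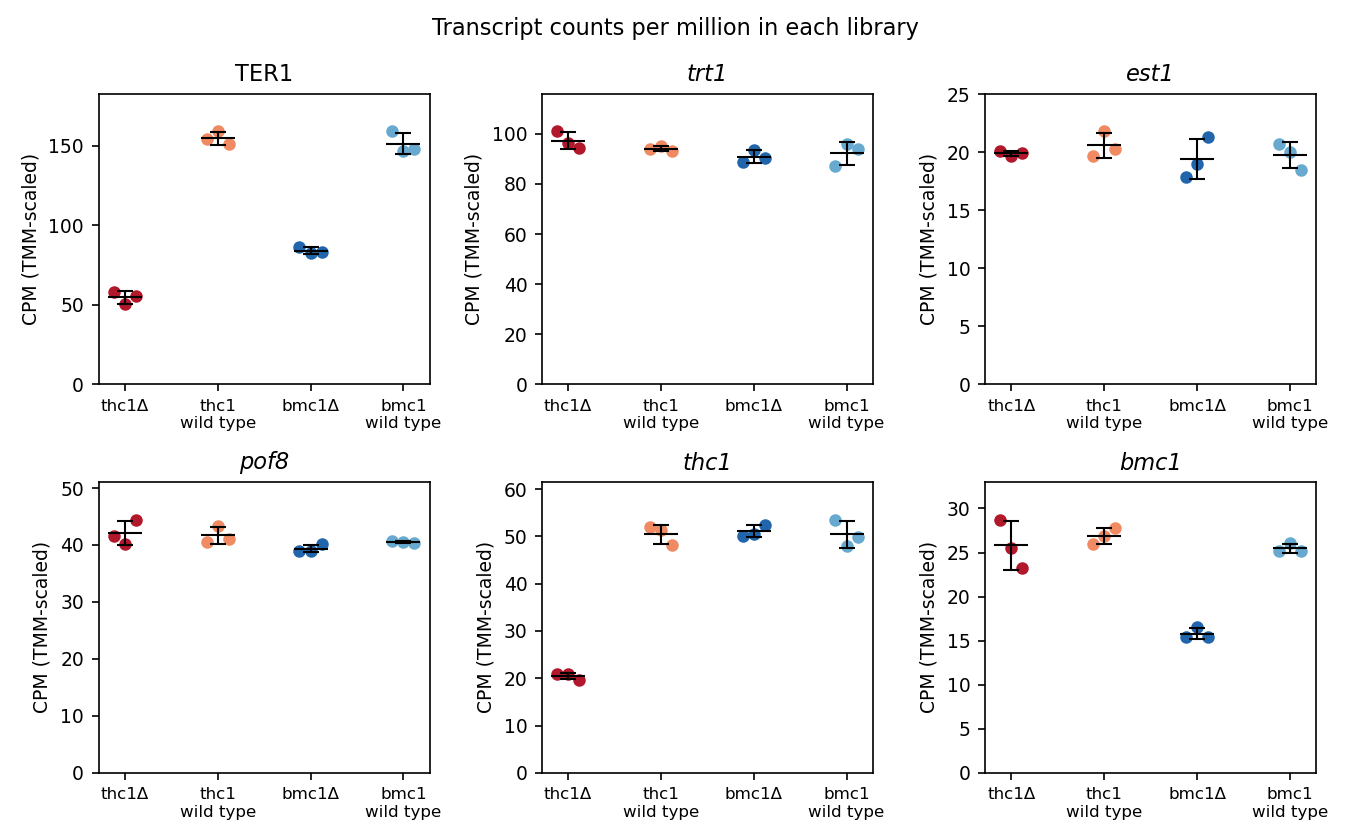
CPM on TMM-scaled library sizes (vertical axis, from 0) of the 6 genes in each of the 12 libraries, grouped by strain. Points are libraries, in the order of replicates 1 to 3, and the bar and whiskers give the mean and SD of 3 libraries. TER1 is lowest in *thc1*Δ, between 50.2 and 58.0 CPM, and next in *bmc1*Δ, between 82.3 and 86.6 CPM, while *trt1* and *est1* overlap between each deletion and its wild type, as does *pof8* in the *thc1* strains.

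In the *thc1*Δ strain, 2 of the 6 transcripts fell, TER1 and the remnant of *thc1* itself, and the other 4 did not pass the test. The share of all 6235 genes tested that passed in this comparison was 21.1%, and 11.1% passed with a lower level. A change of at least 2-fold was reached by 1.2% of all genes in either direction, and by both TER1 and *thc1* among the 6. The fall of *thc1* was given by its deletion, so that only TER1 can be read against these shares.

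TER1 had 2006, 1796 and 2066 counts in *thc1*Δ libraries, against 5798, 5837 and 5721 counts in libraries of the *thc1* wild type. On the CPM scale this was 54.6 ± 3.97 in *thc1*Δ and 155 ± 4.21 in the wild type (SD, n = 3 each). The highest *thc1*Δ library, replicate 1 with 58.0 CPM, lay far below the lowest wild-type library with 151 CPM. The log2 fold change was -1.51 (SE 0.0514, 95% interval -1.63 to -1.39, adjusted *p* = 3.54e-06), which puts TER1 in *thc1*Δ at 35.2% of its wild-type level, with an interval of 32.4% to 38.2%. By fold change TER1 was rank 7 from the lowest of 6235 genes, and by *p* value rank 3.

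In the *bmc1*Δ strain, again 2 of the 6 fell, TER1 and the remnant of *bmc1*, whose fall was given by its deletion. Here only 0.0481% of all 6232 genes passed, which are 3 genes, and 0.0321% passed with a lower level, which are these 2. The remaining gene was *sec22*, named after its values were seen, which encodes a protein of vesicle transport and lies near *bmc1* with only *plp2* between them. It was higher in *bmc1*Δ (log2 fold change 0.43, SE 0.039, adjusted *p* = 0.0163). No gene passed with a change of at least 2-fold by edgeR, DESeq2 or limma-voom, while 7.67% had an unadjusted *p* below 0.05. Without replicate 1 of the *bmc1* wild type 1 gene did so, without replicate 1 of both strains 3 genes, and against the other wild type 169. That last comparison also contains the difference between the wild types, where 175 genes passed with at least 2-fold. The replicate numbers of the h+ strains mark libraries that vary together, and when the fit took this number as a block, 200 genes (3.21%) passed, with the same 2 of the 6 among them.

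TER1 had 3110, 2767 and 3009 counts in *bmc1*Δ libraries, against 5636, 5913 and 5480 counts in libraries of the *bmc1* wild type. This was 84.0 ± 2.33 CPM in *bmc1*Δ and 151 ± 6.56 CPM in the wild type (SD, n = 3 each). The groups did not overlap, with 86.6 CPM in the highest *bmc1*Δ library and 147 CPM in the lowest wild-type library. The log2 fold change was -0.85 (SE 0.0453, 95% interval -0.96 to -0.75, adjusted *p* = 0.0012). TER1 in *bmc1*Δ was thus at 55.3% of its wild-type level, and the interval of 51.4% to 59.5% excludes a fall by 2-fold. It had the lowest *p* value of all genes in this comparison, and rank 9 from the lowest by fold change.

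TER1 fell further in *thc1*Δ than in *bmc1*Δ. The difference between the effects of the deletions, each against its own wild type in a fit over all 12 libraries, was -0.65 on the log2 scale (SE 0.0734, 95% interval -0.81 to -0.49, adjusted *p* = 0.00048). Of all 6279 genes, 10.4% passed this test. Set directly against each other, the deletion strains had 50.2 to 58.0 CPM in *thc1*Δ and 82.3 to 86.6 CPM in *bmc1*Δ, without overlap, and a log2 fold change of -0.62 (SE 0.0594, adjusted *p* = 0.00228, a test that 10.6% of all genes passed). This direct comparison also contains the difference between h- and h+ backgrounds.

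Between the wild types no difference in TER1 was detectable, at 151 ± 6.56 CPM in the *bmc1* wild type and 155 ± 4.21 CPM in the *thc1* wild type, with a log2 fold change of -0.03 (95% interval -0.12 to 0.06, adjusted *p* = 0.562). None of the 6 genes passed in this comparison by edgeR, DESeq2 or limma-voom, and none had an unadjusted *p* below 0.05, although 41.4% of all 6232 genes passed and 51% had an unadjusted *p* below 0.05. With the wild types exchanged as controls, TER1 was at a log2 fold change of -1.48 in *thc1*Δ and -0.88 in *bmc1*Δ.

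**Figure D2:**
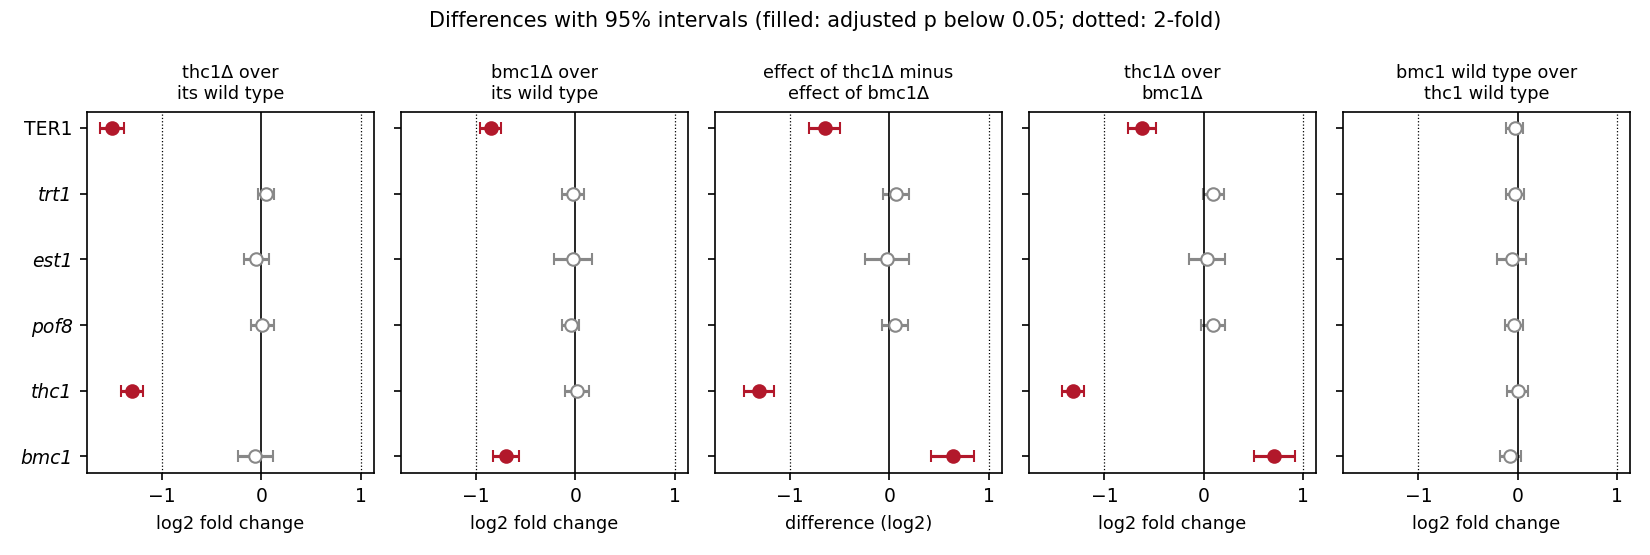
Log2 differences of the 6 genes (horizontal axis) with 95% intervals in the 5 comparisons. Filled points have an adjusted *p* below 0.05 and dotted lines mark 2-fold. TER1 stands at -1.51 in *thc1*Δ and -0.85 in *bmc1*Δ, and the mRNAs of *trt1*, *est1* and *pof8* stand within 0.1 of 0 in every comparison.

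The mRNA of *trt1*, which encodes the reverse transcriptase, showed no fall beside that of TER1. It had 101, 96.2 and 94.4 CPM in *thc1*Δ, against 94.0, 95.1 and 93.3 CPM in the *thc1* wild type. In *bmc1*Δ it had 88.7, 93.6 and 90.4 CPM, against 87.1, 95.8 and 94.1 CPM in the *bmc1* wild type. The groups overlapped in both comparisons. The log2 fold change was 0.04 in *thc1*Δ (95% interval -0.04 to 0.12, adjusted *p* = 0.407) and -0.03 in *bmc1*Δ (95% interval -0.14 to 0.08, adjusted *p* = 0.924). These intervals allow levels of 97.5% to 109% and of 90.9% to 106% of the wild type.

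Est1 brings telomerase to the chromosome end, and its mRNA was the least counted of the proteins whose genes were intact in both deletions, with 639 to 804 counts per library. It had 20.1, 19.7 and 19.9 CPM in *thc1*Δ, against 19.7, 21.8 and 20.3 CPM in the *thc1* wild type. In *bmc1*Δ it had 17.9, 19.0 and 21.3 CPM, against 20.7, 20.0 and 18.5 CPM in the *bmc1* wild type. The groups overlapped in both comparisons, and the log2 fold changes were -0.05 in *thc1*Δ (95% interval -0.18 to 0.08) and -0.03 in *bmc1*Δ (95% interval -0.22 to 0.16). The widest of these intervals allows levels of 85.8% to 112% of the wild type in *bmc1*Δ.

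Pof8 is the La-related protein of the holoenzyme that recognizes folded TER1. Its mRNA had 41.6, 40.2 and 44.4 CPM in *thc1*Δ, against 40.6, 43.4 and 41.0 CPM in the *thc1* wild type. In *bmc1*Δ it had 39.0, 39.0 and 40.1 CPM, against 40.7, 40.6 and 40.4 CPM in the *bmc1* wild type. In the h+ strains all *bmc1*Δ libraries lay below all wild-type libraries, by a margin within the spread of the other strains. The log2 fold change was 0.01 in *thc1*Δ (95% interval -0.10 to 0.12, adjusted *p* = 0.903) and -0.05 in *bmc1*Δ (95% interval -0.14 to 0.04, adjusted *p* = 0.798).

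The genes of Thc1 and Bmc1 were also read in the deletion of the other. In *bmc1*Δ, *thc1* had 50.2, 50.6 and 52.5 CPM, against 53.5, 48.0 and 49.8 CPM in the *bmc1* wild type, with a log2 fold change of 0.01 (95% interval -0.11 to 0.13). In *thc1*Δ, *bmc1* had 28.7, 25.5 and 23.2 CPM, against 26.0, 26.9 and 27.8 CPM in the *thc1* wild type, with a log2 fold change of -0.06 (95% interval -0.24 to 0.11). Both overlapped between groups, and *bmc1* spread more widely in *thc1*Δ than any of the 6 genes in any strain, with a coefficient of variation of 10.7%, highest in replicate 1.

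At its own deletion, *thc1* kept 40.5% of the wild-type level (log2 fold change -1.30, SE 0.0482, adjusted *p* = 3.54e-06), and 55.12% of its annotated exonic bases lie outside the coding sequence. The *bmc1* gene kept 61.5% at its deletion (log2 fold change -0.70, SE 0.054, adjusted *p* = 0.00841), and 43.65% of its exonic bases are noncoding. The call for *bmc1* was lost without *bmc1*Δ replicate 3 (adjusted *p* = 0.0952), without replicate 2 of its wild type (0.125) and without replicate 3 of its wild type (0.0677), at log2 fold changes of -0.68, -0.68 and -0.71. Its overlapping neighbour *iss9* had 48.2 ± 1.85 CPM in *bmc1*Δ and 55.8 ± 1.55 CPM in the wild type (SD, n = 3 each), and its log2 fold change of -0.22 did not pass the test (adjusted *p* = 0.581). Counts remaining on noncoding exons and counts from antisense transcripts cannot be told apart here. The paper reports that PCR verified both deletions, and that reads were absent from the deleted loci in its RNA sequencing. For *thc1*, its figure legend places this absence in the open reading frame. The paper also lists *thc1* among the genes lowered in *thc1*Δ, at a log2 fold change of -1.30. In *thc1*Δ, *his3*, the marker in place of *thc1*, had 44.9 ± 4.14 CPM, against 17.7 ± 0.585 CPM in the wild type (log2 fold change 1.34, SE 0.0686, adjusted *p* = 2.04e-05).

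The differences between the effects of the deletions therefore passed for 3 of the 6 genes, beside 10.4% of all genes: TER1, and the deleted genes themselves, *thc1* at -1.32 (SE 0.0685) and *bmc1* at 0.64 (SE 0.0994) on the log2 scale. For *trt1*, *est1* and *pof8* the difference was 0.07, -0.02 and 0.06, and the widest interval, that of *est1*, was -0.24 to 0.19.

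Per length, TER1 was the most read of the 6 transcripts in both wild types. Its level was 114 ± 3.10 RPKM (CPM divided by the exon length in kilobases) in the *thc1* wild type and 112 ± 4.84 RPKM in the *bmc1* wild type (SD, n = 3 each). The order after it in both wild types was *thc1*, *trt1*, *pof8*, *bmc1* and *est1*, from 64.6 to 12.5 RPKM in the *thc1* wild type, with no overlap between neighbours. TER1 headed the order in *thc1*Δ as well, at 40.2 RPKM, against 32.8 RPKM for *trt1* and with no overlap between them. In *bmc1*Δ it stood at 61.9 RPKM, below *thc1* at 65.3 RPKM, again without overlap, while *est1* and *bmc1* overlapped at the low end. The place of TER1 against *thc1* depended on the length used. With coding length for the mRNAs and the first exon for TER1, *thc1* headed the order in all 4 strains. It had 144 RPKM against 128 RPKM for TER1 in the *thc1* wild type. The counts divided were those of the whole gene, so that this length can overstate a gene with long noncoding exons. In *thc1*Δ the coding sequence of *thc1* is absent, so that its place there is not the level of an intact mRNA.

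The ratio of TER1 to *trt1*, both as reads per base, sets the RNA against the mRNA of its catalytic partner within each library and needs no scaling between libraries. It was 1.25, 1.14 and 1.29 in *thc1*Δ, against 3.59, 3.66 and 3.54 in the *thc1* wild type. It was 2.14, 1.92 and 2.01 in *bmc1*Δ, against 3.99, 3.35 and 3.44 in the *bmc1* wild type. The deletion libraries lay below the wild-type libraries without overlap, at 34.1% of the wild type in *thc1*Δ and 56.3% in *bmc1*Δ, by mean log2 ratios. The two-sided exact permutation *p* was 0.1 in each comparison, which is the smallest that 3 libraries against 3 can give. Against *est1* the percentages were 36.4% and 56.5%, and against *pof8* 34.9% and 57.2%, in the same order of strains.

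**Figure D3:**
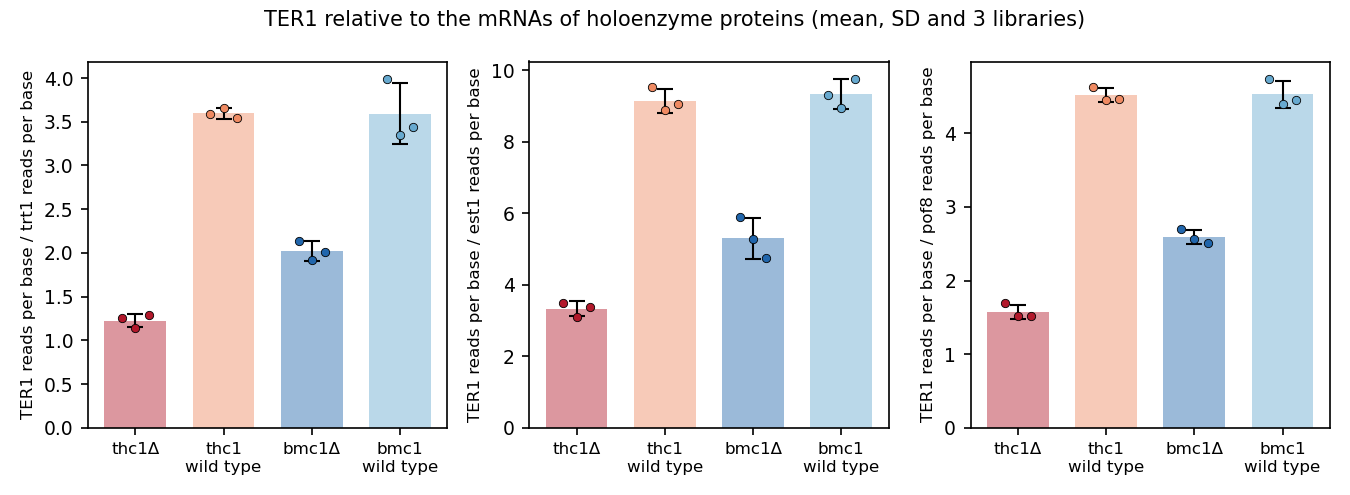
Ratio of TER1 to *trt1*, *est1* and *pof8*, each as reads per exonic base (vertical axes, from 0), in the 4 strains. Bars and whiskers give the mean and SD of 3 libraries, and points give the libraries. The ratio to *trt1* averages 1.23 in *thc1*Δ, 3.60 in its wild type, 2.02 in *bmc1*Δ and 3.60 in its wild type.

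The RNAs *act1*, *his1* and *snoR101* (listed as *snR101*), used for normalization in the RT-qPCR of the study, gave similar ratios. Relative to the mean of their log2 counts, TER1 was at 35.0% of the wild type in *thc1*Δ and at 54.4% in *bmc1*Δ (two-sided exact permutation *p* = 0.1 in each). Taken singly, they gave 38.2% with *act1*, 33.4% with *his1* and 33.7% with *snR101* in *thc1*Δ. In *bmc1*Δ they gave 54.0% with *act1*, 56.3% with *his1* and 52.8% with *snR101*. None of the 3 passed edgeR's test in *thc1*Δ, where their log2 fold changes were -0.12 (*act1*), 0.07 (*his1*) and 0.06 (*snR101*), nor in *bmc1*Δ, and the same holds for DESeq2 and limma-voom. At an unadjusted *p* below 0.05 there was 1 in *thc1*Δ, *act1*, and 0 in *bmc1*Δ. Between the wild types *act1* passed edgeR's test (log2 fold change -0.12, adjusted *p* = 0.0431), as did 41.4% of all genes. There 2 of the 3 passed by DESeq2, 0 by limma-voom, and 3 had an unadjusted *p* below 0.05. Between the deletions 1 passed by DESeq2, 0 by limma-voom, and 2 had an unadjusted *p* below 0.05.

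The fall of TER1 was then refitted under other settings. It ranged over log2 fold changes of -1.55 to -1.45 in *thc1*Δ and -0.88 to -0.82 in *bmc1*Δ as each library was left out, and passed in every case, with adjusted *p* values of at most 0.000134 and 0.0202. Over the other tools, scalings, filters, fits and controls it ranged over -1.52 to -1.48 in *thc1*Δ and over -0.88 to -0.84 in *bmc1*Δ. Without replicate 1 of both strains the values were -1.55 and -0.84.

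**Figure D4:**
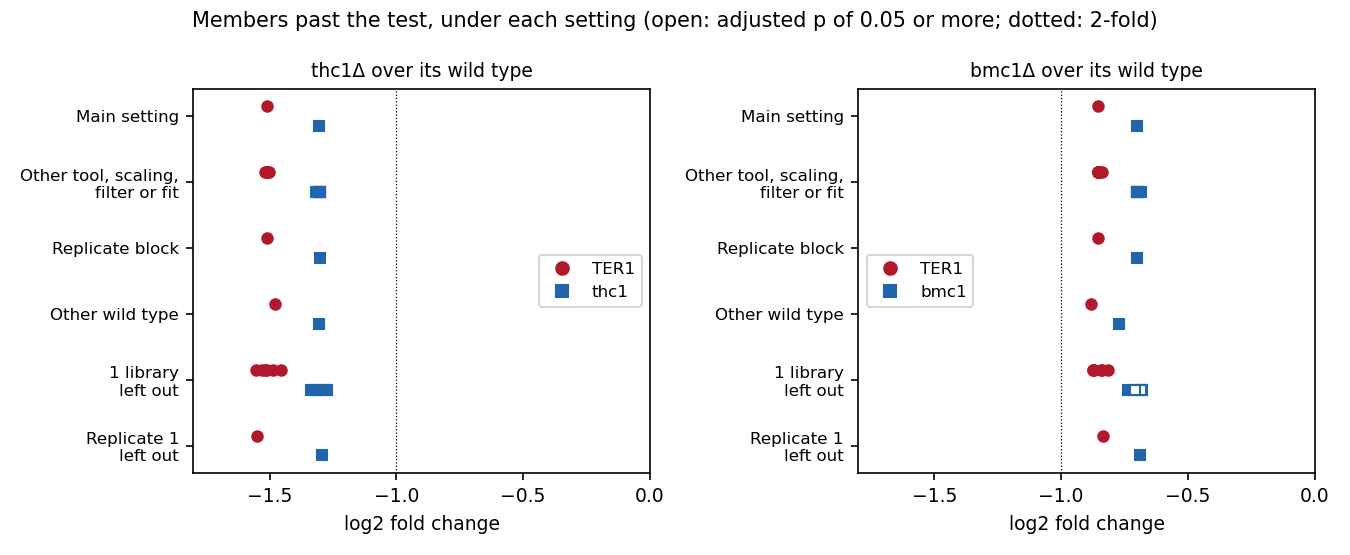
Log2 fold changes (horizontal axis) of the genes that fell in *thc1*Δ (left) and in *bmc1*Δ (right) under the settings named on the vertical axis, 1 point for each fit. Open points have an adjusted *p* of 0.05 or more, and the dotted line marks 2-fold. All TER1 points are filled and lie beyond 2-fold in *thc1*Δ and short of it in *bmc1*Δ, and the only open points are the 3 for *bmc1* with 1 library left out.

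Within a strain the 6 transcripts varied with coefficients of variation between 0.354% (*pof8* in the *bmc1* wild type) and 10.7% (*bmc1* in *thc1*Δ). For comparison, counting alone gives 2.53% to 2.68% for *pof8* and 3.15% to 4.24% for *bmc1*. It gives 1.31% to 2.26% for TER1 and 3.61% to 3.82% for *est1*. Across the 12 libraries, as a description in which strain and library are shared by all points, TER1 correlated most with *thc1* among the 6 (Pearson's r = 0.82 on log2 CPM, both lowest in *thc1*Δ). The low level of *thc1* there was given by its deletion, which shapes this r. The r of TER1 was 0.28 with *bmc1*, itself deleted in *bmc1*Δ, 0.18 with *est1*, -0.05 with *pof8* and -0.34 with *trt1*.

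Of 5918 other genes with a mean of at least 1 CPM, those most like TER1 over the 12 libraries were SPBC16C6.01c (r = 0.93), *avt5*, which encodes a vacuolar amino acid transporter (0.93), SPBC8E4.03 (0.91), *shm1*, a serine hydroxymethyltransferase (0.90), and SPAC664.13 (0.89). Their changes were smaller than that of TER1, with log2 fold changes of -0.60 to -0.10 in *thc1*Δ and -0.18 to -0.09 in *bmc1*Δ. Ranked by Spearman's rho instead, 0 of these 5 stayed among the first 5, so that the list depends on the measure. The nearest genes to the others were SPNCRNA.1168 and *sds21* for *trt1* (both 0.95), *sec59* and *nnf1* for *est1* (0.82 and 0.80), *atp7* and *yip11* for *pof8* (0.92 and 0.88), *aca1* and *asn1* for *thc1* (0.99 and 0.98), and *iss9* and *stb3* for *bmc1* (0.92 and 0.91). Of these, *iss9* shares 472 bases with *bmc1* on the opposite strand. By Spearman's rho, *sec59* for *est1* was the only one of these nearest genes to stay. The 12 libraries include those in which *thc1* or *bmc1* was itself deleted, which shapes the r of these genes. In *thc1*Δ, *aca1* and *asn1* had log2 fold changes of -0.96 and -0.345. In *bmc1*Δ, *iss9* and *stb3* had log2 fold changes of -0.22 and -0.23.

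The proteins that load onto TER1 or meet telomerase at the chromosome end were read as 6 lists with 27 genes, all of which were tested. In *thc1*Δ, 2 of the 27 rose and 1 fell, a smaller share than the 21.1% of all genes that passed. In *bmc1*Δ, where 0.0481% of all genes passed, none of the 27 did by edgeR, DESeq2 or limma-voom, with 2 at an unadjusted *p* below 0.05. In the LSm ring, 1 of 8 genes rose in *thc1*Δ, *lsm2* (37.8 ± 0.902 CPM against 33.3 ± 1.32 CPM in the wild type, log2 fold change 0.18, SE 0.0453, adjusted *p* = 0.0279), and the median of the ring was 0.04 beside 0.00287 for all genes. In the Sm ring 0 of 7 passed in *thc1*Δ (median 0.02, with 0 at an unadjusted *p* below 0.05) and 0 of 7 in *bmc1*Δ (median 0.06, with 1 at an unadjusted *p* below 0.05). Of the cap and end factors Tgs1 and Sla1, *sla1*, the fission yeast La protein, rose in *thc1*Δ (377 ± 21.8 CPM against 336 ± 6.73 CPM in the wild type, log2 fold change 0.16, SE 0.0456, adjusted *p* = 0.042). With the other wild type as control both calls were lost, at a log2 fold change of 0.06 for *lsm2* (adjusted *p* = 0.463) and of 0.24 for *sla1* (adjusted *p* = 0.106). Each call was also lost in 4 of the 6 fits that left out 1 library. The call for *sla1* was lost as well with library totals (adjusted *p* = 0.0618), in the fit over all 12 libraries (0.245) and with the replicate block (0.0592), at log2 fold changes of 0.15, 0.16 and 0.16.

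The shelterin genes *taz1*, *rap1*, *poz1*, *tpz1*, *pot1* and *ccq1*, whose products cover the telomere, had log2 fold changes of -0.12 to 0.16 in *thc1*Δ and -0.06 to 0.05 in *bmc1*Δ, and 0 of 6 passed in either by edgeR, DESeq2 or limma-voom, with 2 in *thc1*Δ and 0 in *bmc1*Δ at an unadjusted *p* below 0.05. The kinases *tel1* and *rad3*, which promote telomerase recruitment, did not pass in either by any of these tools, with 1 in *thc1*Δ and 0 in *bmc1*Δ at an unadjusted *p* below 0.05. Of the CST genes *stn1* and *ten1*, which act in replication of the telomeric C strand, *ten1* fell in *thc1*Δ and was the only one of the 27 to reach 2-fold. It had 49, 33 and 47 counts in *thc1*Δ libraries, against 127, 98 and 115 counts in libraries of the *thc1* wild type, without overlap (log2 fold change -1.34, SE 0.173, adjusted *p* = 0.00171). In *bmc1*Δ it had 67, 54 and 73 counts, against 69, 85 and 61 counts in the *bmc1* wild type, and a log2 fold change of -0.06 (95% interval -0.42 to 0.30). The difference between the effects was -1.28 (SE 0.238, adjusted *p* = 0.00653). The level of *ten1* also differed between the wild types, lower in the *bmc1* wild type by a log2 fold change of -0.67 (SE 0.141, adjusted *p* = 0.00619), and against that wild type *ten1* in *thc1*Δ stood at -0.67 with the call lost (adjusted *p* = 0.0551).

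**Figure D5:**
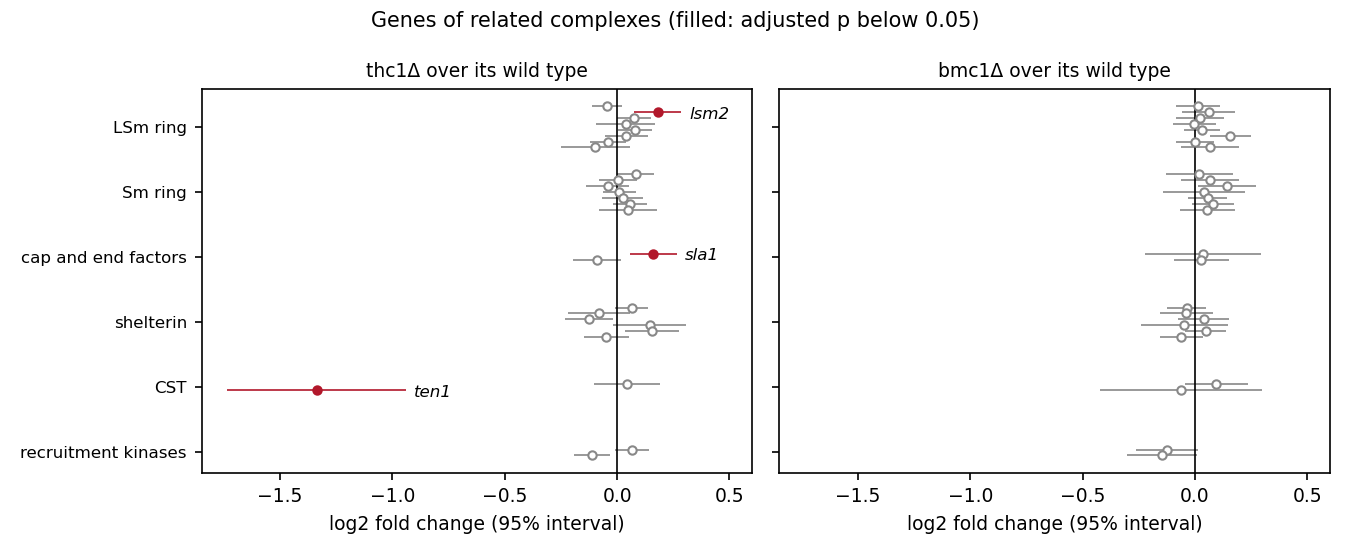
Log2 fold changes with 95% intervals (horizontal axis) of the 27 genes of 6 related lists in *thc1*Δ (left) and *bmc1*Δ (right), 1 point for each gene. Filled points have an adjusted *p* below 0.05. In *thc1*Δ *ten1* stands apart at -1.34, with *lsm2* at 0.18 and *sla1* at 0.16, and no point is filled in *bmc1*Δ.

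Between the wild types, 13 of the 27 genes passed, 5 higher and 8 lower in the *bmc1* wild type, beside 41.4% of all genes. Higher were *taz1*, *rap1*, *ccq1*, *tel1* and *rad3*, and lower were *lsm1*, *lsm6*, *smd1*, *smd2*, *smd3*, *smf1*, *poz1* and *ten1*. None reached 2-fold. In the direct comparison of *thc1*Δ with *bmc1*Δ 0 of the 27 passed by edgeR or limma-voom and 1 by DESeq2, beside 10.6% of all genes by edgeR, with 3 at an unadjusted *p* below 0.05, and *ten1* had a log2 fold change of -0.61.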

How the data were processed

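Total RNA was depleted of ribosomal RNA, and stranded single-end libraries were aligned to ASM294v2 with STAR 2.5.2b. The deposited values are whole-number counts per gene, not normalized by the authors, whose notes also name DESeq2 1.22.2. What tool counted the reads, with which annotation and strand setting, is not given in the sources used here. Depletion and amplification act before counting, and intervals cover counting error and culture spread only.

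Groups followed the sample labels. Counts were tested with edgeR 4.0.16 (TMM, filterByExpr with a minimum count of 10, glmQLFit and glmQLFTest) in R 4.3.3 on the 6 libraries of a comparison, or on all 12 for the difference between effects, with Benjamini-Hochberg adjustment over all genes tested. The SE was the log2 fold change divided by the square root of F. Ratios were compared by exact permutation. The alternatives were DESeq2 1.42.0, limma-voom 3.58.1, other scalings and filters, a fit over all 12 libraries, the replicate block, the other wild type, and leaving out each library. The script was tested on simulated data with 200 changed genes.

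Same-numbered libraries of *bmc1*Δ and its wild type deviated together (correlations 0.451, 0.279 and 0.221), from the data alone, and those of the *thc1* pair did not.

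Members, lists and tests were chosen with earlier results of these data known. The genes named were the 6, list genes that passed, the 3 RT-qPCR normalizers, *his3*, overlapping genes in the table and the genes most like each member by Pearson's r of log2(CPM + 0.5). Names and sequences are from RefSeq ASM294v3, where 6846 genes matched a locus tag, 15 a synonym and 143 neither. Python 3.11.15 and matplotlib 3.10.9 drew the figures.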

Additional observations from a re-analysis of the deposited data

Results flagged for a closer look

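For 3 of the 6 genes the effects of the deletions differed in the test of the difference itself, over all 12 libraries by edgeR, which 10.4% of all 6279 genes passed. TER1 was lower by -0.65 (log2, adjusted *p* = 0.00048) in *thc1*Δ relative to *bmc1*Δ, each against its own wild type, and lay below the wild type in 3 of 3 libraries of either deletion. The other 2 are the deleted genes: *thc1* at -1.32 (adjusted *p* = 6.43e-07) and *bmc1* at 0.64 (adjusted *p* = 0.00269).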

How the results depend on the processing

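Of 522 estimates of the 6 genes under the alternatives, 27 changed sign, all of them below 0.068 in size on the log2 scale and none of a gene that passed. The count of the 6 that passed was 2 in *thc1*Δ, 3 for the difference between effects, 3 between the deletions and 0 between the wild types under every alternative run. In *bmc1*Δ it was 1 to 2 as each library was left out and 2 otherwise. The replicate block moved no call among the 6. For the *thc1* strains, whose same-numbered libraries did not deviate together (correlations -0.0111, 0.0166 and -0.0896), it gave 937 genes in place of 1313. With coding lengths TER1 took place 2 by level per length in all 4 strains, in place of 1 in both wild types and *thc1*Δ. In *thc1*Δ place 1 then went to the remnant of the deleted *thc1*, whose coding sequence is absent. With Spearman's rho, 0 of the 5 nearest genes of TER1 stayed. Leaving out replicate 1 of all strains, chosen after seeing the data, changed no call among the 6.

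The number of all genes that passed, against which the 6 were read, moved more. Leaving out each library gave 578 to 2562 genes in *thc1*Δ in place of 1313 (2562 without *thc1*Δ replicate 1), 1 to 4 in *bmc1*Δ in place of 3, 328 to 917 for the difference in place of 655, 91 to 459 between the deletions in place of 661, and 1582 to 2824 between the wild types in place of 2583. The other wild type as control gave 844 in *thc1*Δ and 2379 in *bmc1*Δ. DESeq2 gave 30 in *bmc1*Δ and 1073 between the deletions, where the block gave 85 and all 12 libraries together 1540. Without replicate 1 of all strains there were 58 in *bmc1*Δ, 1292 for the difference and 1184 between the deletions. The cause was not tested.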
